A study of Homo sapiens with 12 samples.

Results

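Huh7 cells treated with graphene oxide (GO) were compared with untreated Huh7 cells gene by gene. The genes examined were 17092 of the 63677 in the count table, those with 10 counts or more in 3 or more of the 12 samples, and the comparison used 6 of these 12 samples. Huh7 is a line grown from a human hepatocellular carcinoma, and GO is oxidised carbon in thin sheets. The study asked how the line responds to GO, to GO carrying the ginsenoside Rg3, a saponin of ginseng (GO-Rg3), and to the same conjugate loaded with doxorubicin. Both groups compared here were seeded in 6-well plates and grown for 24 h. One group of 3 samples then stayed in culture without any agent, and the other group of 3 received GO at 400 µg/mL for 6 h. The 3 samples that received GO-Rg3 at the same mass concentration were used where a difference between GO and its conjugate is stated. This concentration is that of the conjugate, and the labels do not give the mass of GO within it. The paper also reports larger and thicker flakes for GO-Rg3 than for GO. The parts of Rg3, GO mass and flake size in these differences cannot be told apart. The labels do not say whether the replicates came from separate cultures, so p-values measure the spread between these samples, which may be technical.

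Levels are given as CPM, counts per 1000000 reads after library scaling, in the order of replicates 1, 2 and 3. Fold changes are log2 values of GO over untreated cells with their standard error (SE). Each was tested in edgeR by quasi-likelihood, and p-values were corrected over the 17092 genes (Benjamini-Hochberg). A gene is said to have risen or fallen where its adjusted p was below 0.01. It is called overexpressed or under-expressed where its log2 fold change was also above 1 or below -1, the thresholds of the study. At the first threshold 12.1% of all genes were higher and 15.4% were lower in GO-treated cells, and at the second threshold 3.84% were overexpressed and 2.62% under-expressed. In 58.5% of all genes the 3 treated and the 3 untreated libraries did not overlap in CPM. Over all genes the median log2 fold change was 0.01. The strand setting of the counting is not given in the sources used here, so the values of genes whose exons overlap a gene on the other strand are uncertain to that extent. Among those given by library below, these are HIF1A, BHLHE40, BNIP3L, PDK1, IDI1, HSP90AA1, NFE2L2, ICAM1 and RORA. Since these are bulk libraries, fewer cells with a transcript and less of it per cell cannot be told apart.

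Several responses of liver cells to stress run through dedicated transcription factors. Hypoxia-inducible factors are degraded while oxygen and iron are available to the prolyl hydroxylases that mark them, and otherwise switch on genes for sugar uptake, glycolysis and growth of vessels. The metal-regulatory factor MTF1 binds zinc and drives metallothioneins and the zinc exporter SLC30A1. SREBF2 drives sterol synthesis when membrane sterols are low, ATF4 drives amino acid genes when translation initiation is slowed, HSF1 drives chaperones when proteins unfold, and NFE2L2 (NRF2) drives glutathione and detoxification genes when its inhibitor KEAP1 is modified.

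The 6 libraries held 28421737 to 38877420 counts each. Mitochondrially encoded genes took 5.31%, 5.84% and 6.28% of the counts in untreated cells and 24.1%, 12.1% and 14.8% in GO-treated cells, so GO replicate 1 stood apart from the other treated libraries. The study lists its lowest RNA integrity for the GO library with this replicate's number of detected genes, and the part of RNA integrity was not tested. The exact two-sided permutation test gave p = 0.1, the smallest value that 3 against 3 samples allow. The 12 hepatocyte markers checked were all detected, and AFP, the fetal plasma protein that hepatomas secrete, was at 12439, 12255 and 12167 CPM in untreated cells. Among 16 markers of leukocytes, endothelium, fibroblasts and bile duct cells, PTPRC, CD3E and CD68 had at most 7 counts in any of the 6 libraries, and PECAM1 and KRT7 had none. LYZ, lysozyme, also counted among the leukocyte markers, was at 153, 149 and 148 CPM in untreated and 115, 133 and 124 CPM in GO-treated cells. The summed level of these 16 markers was 336 to 363 CPM in untreated and 418 to 507 CPM in GO-treated libraries. The duct markers SOX9 and KRT19 rose, with log2 fold changes of 1.28 (SE 0.12, adjusted p = 3.7e-06) and 0.82 (SE 0.20, adjusted p = 0.0049), and the latter did not pass without GO replicate 1 (0.56, adjusted p = 0.022). EPCAM, also counted among the duct markers, was lower without passing, at -0.30 (SE 0.10, adjusted p = 0.031). The part of these markers in the results below was not tested.

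The response was described through 28 gene lists that hold 795 of the tested genes, 70 of the overexpressed and 37 of the under-expressed genes among them. Hypoxia-inducible factor targets and mitochondrially encoded mRNAs had the largest shares of higher members. Heat shock genes, the aryl hydrocarbon receptor battery, BMP-SMAD genes and NRF2 targets had the largest shares of lower members. Sterol genes, coagulation and complement genes, liver identity factors and YAP-TEAD targets held members in both directions, 12.5% to 20% of them higher and 13.6% to 16.7% lower.

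**Figure D1:**
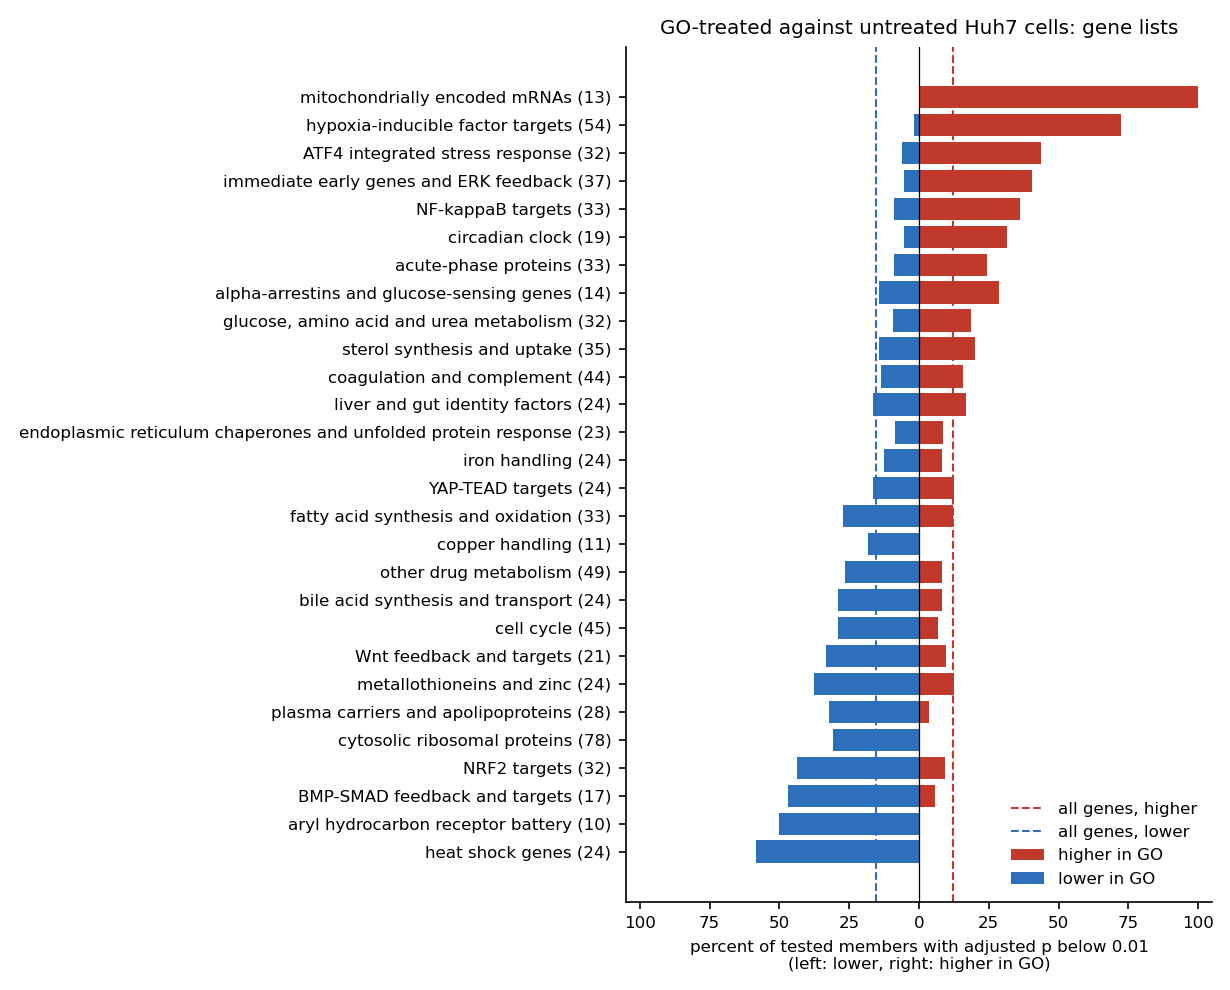
Percent of the tested members of each of 28 gene lists that were higher (red, to the right) or lower (blue, to the left) in GO-treated than in untreated cells at an adjusted p below 0.01, with the number of tested members in parentheses. Dashed lines mark the shares among all 17092 genes, 12.1% higher and 15.4% lower.

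Targets of hypoxia-inducible factors formed the broadest coordinated rise among the nuclear-encoded lists. Of 58 listed genes 54 were tested, and 39 were higher, 1 was lower and 14 did not pass. Overexpression was called for 19 of them, 35.2%, beside 3.84% of all genes. The median log2 fold change was 0.74, beside 0.01 for all genes. Without GO replicate 1 the counts were 38 higher and 1 lower, and with an offset for transcript GC content they were 41 and 1. Per library, the median of the list relative to the untreated mean was 0.77 in each of the 3 GO-treated libraries, on a log2(CPM + 0.5) scale, and between -0.02 and 0.03 in the untreated ones.

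The promoters of 3 of these genes are shown because the core of the hypoxia response element, ACGTG or GCGTG, can be read in them directly. Each runs from 250 bases before to 50 after the transcription start in RefSeq, 5′ to 3′ on the gene's strand on GRCh38.p14, and capitals mark the 5-letter core on either strand, with CACGTG holding it on both. PPFIA4 had the largest rise of the list, PFKFB4 the largest among its glycolytic genes, and BNIP3 holds 6 matches. They lie at chr1:203026241-203026540 on the plus strand, chr3:48556754-48557053 on the minus strand and chr10:131981874-131982173 on the minus strand.
PPFIA4: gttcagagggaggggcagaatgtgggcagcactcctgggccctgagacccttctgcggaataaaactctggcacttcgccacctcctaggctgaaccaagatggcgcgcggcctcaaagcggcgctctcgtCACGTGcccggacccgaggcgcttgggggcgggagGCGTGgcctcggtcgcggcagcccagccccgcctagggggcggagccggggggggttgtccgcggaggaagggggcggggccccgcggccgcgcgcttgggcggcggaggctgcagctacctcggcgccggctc
PFKFB4: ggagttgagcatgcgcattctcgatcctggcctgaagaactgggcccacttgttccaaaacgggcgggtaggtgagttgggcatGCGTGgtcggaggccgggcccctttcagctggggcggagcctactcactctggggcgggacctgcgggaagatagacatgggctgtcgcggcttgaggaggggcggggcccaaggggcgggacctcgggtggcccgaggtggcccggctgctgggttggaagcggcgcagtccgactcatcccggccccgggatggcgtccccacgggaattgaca
BNIP3: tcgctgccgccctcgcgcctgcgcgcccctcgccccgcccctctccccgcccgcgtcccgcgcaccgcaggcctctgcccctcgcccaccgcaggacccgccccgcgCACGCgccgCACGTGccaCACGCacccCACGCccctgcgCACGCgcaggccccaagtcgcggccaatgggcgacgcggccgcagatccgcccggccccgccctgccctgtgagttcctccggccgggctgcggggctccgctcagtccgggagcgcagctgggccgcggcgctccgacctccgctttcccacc
The core was present in 38 of the 49 list members found in the promoter table (77.6%) and in 48.4% of all 35116 promoters of the same length. This share covers listed members whether or not they rose. PLIN2 and PGK1, which did not pass, held 5 and 4 matches, and PDK1 and SLC16A3, which rose, held 0. GCGTG is also the core of the xenobiotic response element, so a match does not tell these apart.

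Sugar transport and glycolysis genes rose in 13 of 19 cases, with a median log2 fold change of 0.76. PFKFB4, which makes the activator of phosphofructokinase, was at 26.3, 28.0 and 25.6 CPM in untreated and 189, 187 and 185 CPM in GO-treated cells (chromosome 3 from 48555117 to 48599448 on GRCh37). Every treated library was far above every untreated one, a log2 fold change of 2.81 (SE 0.11, adjusted p = 4.7e-10), and an exon of UCN2 overlaps the gene on the same strand. ENO2, the neuronal enolase, was at 4.50, 4.32 and 4.57 CPM before and 33.4, 23.5 and 25.1 CPM after GO (chromosome 12 from 7022909 to 7032861). It rose by 2.61 (SE 0.18, adjusted p = 1.7e-07) on the log2 scale, highest in GO replicate 1 and still well apart in the other treated libraries. PDK1, a kinase that inhibits pyruvate dehydrogenase, was at 11.1, 12.2 and 11.1 CPM and at 37.1, 57.1 and 54.4 CPM with GO. Its log2 fold change was 2.11 (SE 0.15, adjusted p = 1.7e-07), here with GO replicate 1 the lowest of the treated libraries.

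The glucose transporter SLC2A1 (GLUT1, chromosome 1 from 43391024 to 43424564) was at 64.4, 57.1 and 61.9 CPM in untreated and 213, 201 and 216 CPM in GO-treated cells. The separation was complete, with a log2 fold change of 1.78 (SE 0.12, adjusted p = 1.1e-07). SLC16A3, which exports lactate, rose by 1.46 (SE 0.21, adjusted p = 9.1e-05), HK2, the inducible hexokinase, by 1.41 (SE 0.08, adjusted p = 1.9e-08), and ALDOC by 1.08 (SE 0.09, adjusted p = 6.6e-07). Abundant enzymes moved less. ENO1 was at 2659, 2588 and 2658 CPM and at 4875, 3789.9 and 3829 CPM with GO, a log2 fold change of 0.66 (SE 0.14, adjusted p = 0.0015), and LDHA rose by 0.46 (SE 0.10, adjusted p = 0.0017). GAPDH, TPI1, PGAM1 and PGK1 did not pass, at log2 fold changes of 0.38, 0.38, 0.14 and -0.05.

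Genes of oxygen sensing and feedback did not all move together, with 4 higher and 1 lower of 7. HIF1A, the regulated subunit of the factor, was at 260.1, 252 and 246 CPM in untreated and 108, 164 and 153 CPM in GO-treated cells (chromosome 14 from 62162231 to 62214977), a fall of its mRNA, at -0.84 (SE 0.13, adjusted p = 0.00018). Without overlap between groups, this is the only tested member of the list that fell. With the GC offset the value was -0.44 (adjusted p = 0.00024). EPAS1 (HIF-2 alpha) was higher, at 298, 284 and 288 CPM and 356, 396 and 404 CPM with GO, a log2 fold change of 0.41 (SE 0.09, adjusted p = 0.0024). EGLN1, the main prolyl hydroxylase and itself a target, rose by 0.70 (SE 0.11, adjusted p = 0.00017), while EGLN3 did not pass at 0.09. BHLHE40, a repressor induced by low oxygen and also a member of the clock list, was at 65.0, 59.2 and 66.1 CPM and 189, 205 and 218 CPM with GO. Its log2 fold change was 1.68 (SE 0.09, adjusted p = 1.4e-08), with no overlap between groups.

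Of 4 targets that act in mitochondria and autophagy 2 were higher, BNIP3L and BNIP3, and NDUFA4L2 and FAM162A did not pass, at 0.64 and -0.23. BNIP3L, a receptor that delivers mitochondria to autophagosomes, was at 44.9, 43.5 and 45.5 CPM and 99.0, 128 and 117.9 CPM with GO, a log2 fold change of 1.37 (SE 0.11, adjusted p = 6.3e-07). BNIP3 rose by 0.62 (SE 0.11, adjusted p = 0.00035). Of 10 secreted signals and matrix enzymes, 9 were higher. STC2, a secreted glycoprotein, was at 12.3, 10.3 and 11.3 CPM and 55.8, 46.9 and 45.6 CPM with GO (2.12 (SE 0.13, adjusted p = 3.6e-08)). EPO, the hormone of red cell formation, which hepatoma lines can make, was low but separated, at 1.32, 1.53 and 1.06 CPM and 3.92, 3.75 and 3.68 CPM with GO (1.54 (SE 0.22, adjusted p = 8.7e-05)). ADM, a vasodilator peptide, rose by 0.96 (SE 0.12, adjusted p = 2.6e-05), and the collagen prolyl hydroxylases P4HA1 and P4HA2 by 0.64 (SE 0.12, adjusted p = 0.00076) and 0.60 (SE 0.09, adjusted p = 9.6e-05).

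The largest rise of the list was PPFIA4, a scaffold protein (chromosome 1 from 202995619 to 203047868), at 1.38, 1.66 and 1.48 CPM in untreated and 22.5, 23.4 and 23.0 CPM in GO-treated cells. The 3 treated libraries differed from each other by less than 1 CPM, and the log2 fold change was 3.93. DDIT4, an inhibitor of mTORC1 shared with the ATF4 list, rose by 1.87 (SE 0.21, adjusted p = 1.4e-05), KDM4B, a histone demethylase, by 1.52 (SE 0.17, adjusted p = 1.3e-05), and HILPDA, a lipid droplet protein, by 1.22 (SE 0.11, adjusted p = 2.6e-06). SPAG4 and EFNA3, which the list does not hold, were also among the 10 largest rises of protein-coding genes, chosen as described below. PLIN2, ANKRD37, WSB1 and PLOD2, likewise listed, did not pass, at 0.05, 0.42, 0.47 and 0.11.

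**Figure D2:**
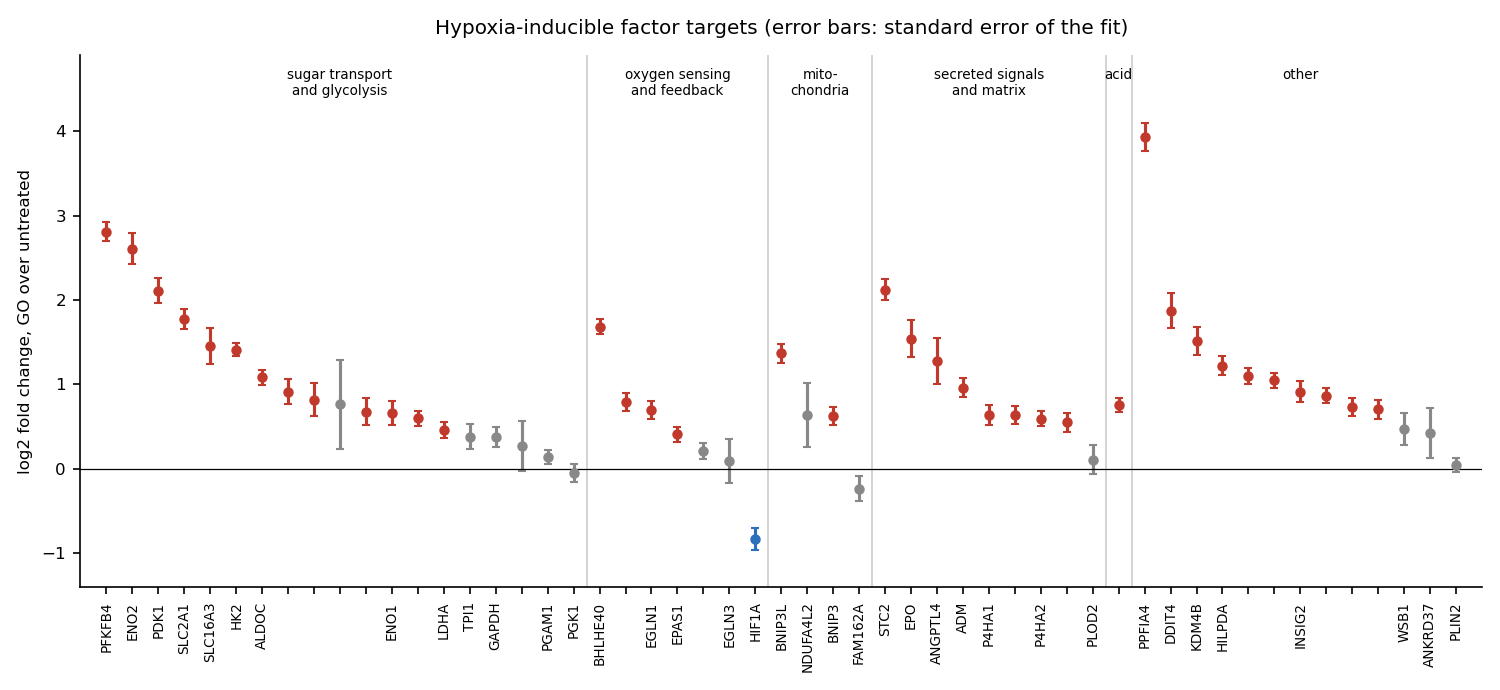
Log2 fold change of GO over untreated cells for all but 1 of the 54 tested hypoxia-inducible factor targets, grouped by role (acid stands for acid balance), with labels for genes named in the text and with the SE of the fit as error bars. Red points rose, the blue point fell and grey points did not pass at an adjusted p of 0.01. HIF1A at -0.84 is the only blue point and PPFIA4 at 3.93 is the highest.

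At the same mass concentration of the GO-Rg3 conjugate, this group was lower than with bare GO. GO-Rg3 was below GO for 37 of the 54 members and above it for 1, beside 6.25% lower and 7.33% higher among all genes in that comparison. PFKFB4 was at 32.6, 27.0 and 31.6 CPM with GO-Rg3, a log2 difference from GO of -2.62 (SE 0.11, adjusted p = 8.7e-10). SLC2A1 was at 83.9, 57.6 and 69.5 CPM (-1.58 (SE 0.12, adjusted p = 5.4e-07)), and PPFIA4 at 1.73, 1.22 and 2.06 CPM (-3.77 (SE 0.16, adjusted p = 8.7e-10)). Differences above 1 in size were called for 0.702% of all genes upwards and 2.07% downwards. HIF1A was the member higher with GO-Rg3, at 252, 302 and 262 CPM (0.94 (SE 0.13, adjusted p = 0.00019)). This comparison shares its GO libraries with the comparison of GO and untreated cells.

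Metallothioneins, small cysteine-rich proteins that bind zinc and copper, fell the most of any list. Of 11 listed genes 5 were tested, all 5 were under-expressed, and their median log2 fold change was -3.87. Under-expression was called for 2.62% of all genes. The other 6 (MT1A, MT1B, MT1G, MT1H, MT1L and MT3) had at most 13 counts in any of the 6 libraries. The members are near-identical copies in a cluster on chromosome 16, so reads may be lost or split among them and each single value is uncertain.

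A second set of promoters is shown because the metal response element, to which MTF1 binds, can be read in them. They are drawn from RefSeq as above, on GRCh38.p14, at chr16:56608334-56608633 on the plus strand, chr16:56682220-56682519 on the plus strand and chr1:211579112-211579411 on the minus strand. Capitals mark TGCACNC or TGCGCNC on either strand, a match to letters only.
MT2A: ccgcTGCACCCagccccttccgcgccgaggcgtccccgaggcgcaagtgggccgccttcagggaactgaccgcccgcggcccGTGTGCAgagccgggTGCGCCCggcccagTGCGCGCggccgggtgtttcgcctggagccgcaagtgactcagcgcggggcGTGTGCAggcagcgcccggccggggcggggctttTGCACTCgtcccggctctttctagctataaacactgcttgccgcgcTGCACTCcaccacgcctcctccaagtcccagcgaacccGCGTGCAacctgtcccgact
MT1X: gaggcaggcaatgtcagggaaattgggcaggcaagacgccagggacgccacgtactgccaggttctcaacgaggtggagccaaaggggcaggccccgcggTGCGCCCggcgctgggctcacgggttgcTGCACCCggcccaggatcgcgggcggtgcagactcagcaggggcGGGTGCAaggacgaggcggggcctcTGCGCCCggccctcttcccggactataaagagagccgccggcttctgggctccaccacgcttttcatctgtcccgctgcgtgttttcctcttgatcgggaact
SLC30A1: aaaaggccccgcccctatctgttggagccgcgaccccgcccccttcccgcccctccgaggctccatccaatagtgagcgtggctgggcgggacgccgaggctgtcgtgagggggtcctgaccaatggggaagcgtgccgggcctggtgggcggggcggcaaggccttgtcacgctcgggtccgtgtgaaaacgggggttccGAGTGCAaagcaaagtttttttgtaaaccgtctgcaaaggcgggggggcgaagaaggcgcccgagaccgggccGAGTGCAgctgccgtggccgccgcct
MT2A holds 8 matches, MT1X holds 4 and SLC30A1 holds 2. All 4 metallothioneins in the promoter table (MT2A, MT1X, MT1B and MT1H) had at least 1, and 29.6% of all promoters did. MT1B and MT1H were not tested. Among 8 zinc exporters 4 had one (SLC30A1, SLC30A2, SLC30A4 and SLC30A6). Among 10 importers 2 had one (SLC39A3 and SLC39A6), with none in SLC39A10. Of these transporters with a match, SLC30A2 and SLC30A4 were not tested, and SLC30A6, SLC39A3 and SLC39A6 did not pass.

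MT2A (chromosome 16 from 56642496 to 56643409 on GRCh37) was at 44.3, 33.1 and 38.4 CPM in untreated and 8.58, 6.5004 and 7.58 CPM in GO-treated cells, a log2 fold change of -2.36 (SE 0.29, adjusted p = 3.1e-05). MT1X was at 12.9, 11.5 and 12.1 CPM and 0.862, 0.829 and 0.792 CPM with GO (-3.87 (SE 0.23, adjusted p = 3.8e-08)), MT1F fell, at -3.05 (SE 0.20, adjusted p = 6.9e-08), and MT1E went from 12.8, 9.46 and 10.4 to 0.392, 0.321 and 0.481 CPM. None of these genes overlapped between the groups in any library. MT1M had 46, 20 and 37 counts in untreated cells and 0 in each GO-treated library, so it was at least 9.65-fold lower against a floor of 3 counts per library.

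The zinc exporter SLC30A1 (ZnT1), which carries zinc out across the plasma membrane, fell with them. It was at 82.8, 82.1 and 79.2 CPM in untreated and 11.8, 13.8 and 11.7 CPM in GO-treated cells (chromosome 1 from 211744910 to 211752503), a log2 fold change of -2.71 (SE 0.11, adjusted p = 5.4e-10). SLC39A10 (ZIP10), an importer whose transcription MTF1 is known to repress, moved the opposite way. It was at 21.1, 20.5 and 20.5 CPM and 65.6, 86.1 and 83.3 CPM with GO (chromosome 2 from 196440701 to 196602426), a log2 fold change of 1.92 (SE 0.13, adjusted p = 8.3e-08). The 3 treated libraries stood well above the untreated ones, with GO replicate 1 the lowest of them. SLC39A14 (ZIP14), a hepatic importer of zinc and iron, fell, at -0.43 (SE 0.11, adjusted p = 0.0051), and SLC39A5 and SLC39A9 rose by 0.56 (SE 0.14, adjusted p = 0.0053) and 0.47 (SE 0.09, adjusted p = 0.00065). MTF1 itself had a log2 fold change of 0.00. Of 24 tested genes in the whole zinc list 3 were higher, 9 lower and 12 did not pass.

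**Figure D3:**
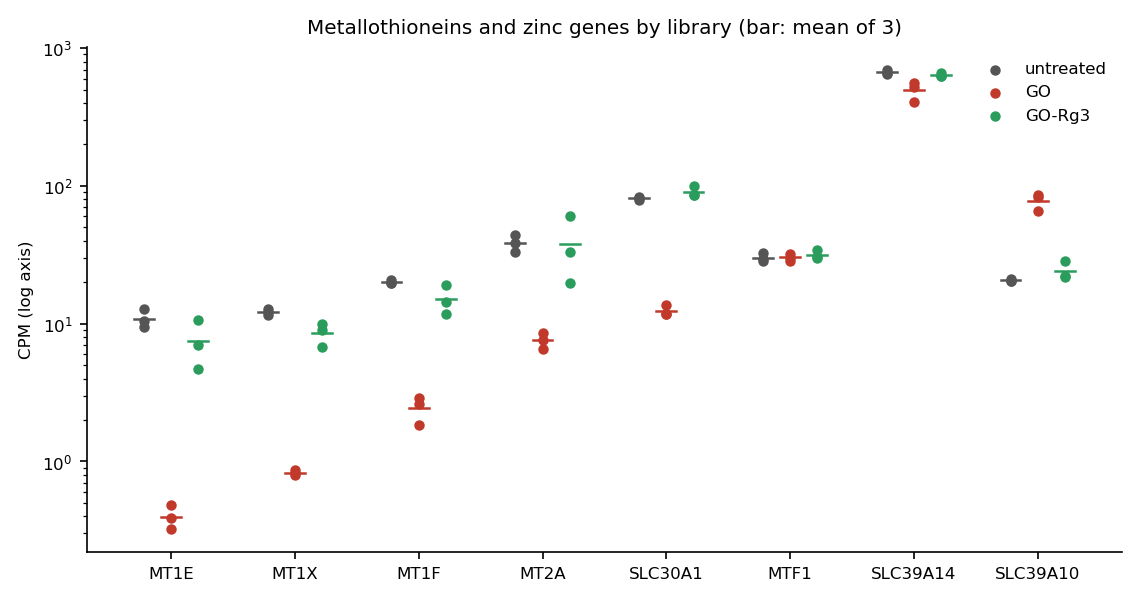
CPM on a log axis of 4 metallothioneins, the exporter SLC30A1, the factor MTF1 and the importers SLC39A14 and SLC39A10 in each library of untreated (grey), GO-treated (red) and GO-Rg3-treated (green) cells, with a bar at the mean of 3. The GO-treated libraries lie below the untreated ones for the metallothioneins and SLC30A1 and above them for SLC39A10.

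All 5 metallothioneins were higher with GO-Rg3 than with GO, and SLC30A1 was at 85.9, 99.6 and 85.6 CPM, a log2 difference from GO of 2.86 (SE 0.11, adjusted p = 5.1e-10). SLC39A10 was lower, at 21.7, 28.7 and 22.2 CPM (-1.70 (SE 0.12, adjusted p = 4.6e-07)). MT2A varied most among the GO-Rg3 libraries, at 60.4, 19.7 and 33.2 CPM.

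Genes of the other metals did not share this pattern. Of 11 copper genes 2 were lower and none higher, with a median log2 fold change of -0.24. These were COX17, the chaperone that brings copper to cytochrome oxidase, at -0.96 (SE 0.17, adjusted p = 0.00042), and SOD1, the copper and zinc superoxide dismutase, at -0.47 (SE 0.13, adjusted p = 0.01). The exporter ATP7A did not pass, at -0.53. Of 24 iron genes 2 were higher and 3 lower, with a median of 0.03. TFRC, the transferrin receptor, had a log2 fold change of 0.40, and FTH1 and FTL, the ferritin chains, had 0.15 and 0.03, none of them past the test. Those that passed were the iron sensor FBXL5 (-0.74 (SE 0.16, adjusted p = 0.0022)), NCOA4, which targets ferritin for breakdown (-0.49 (SE 0.12, adjusted p = 0.0044)), SLC39A14, SLC11A2, an iron transporter (0.38 (SE 0.10, adjusted p = 0.0078)), and SLC48A1, a haem transporter (0.70 (SE 0.17, adjusted p = 0.0037)). Leaving out an untreated library left at most 1 of the 5 iron genes past the test.

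The sterol list held changes in both directions, 7 higher and 5 lower of 35, with a median log2 fold change of -0.04. The 5 lower genes were all enzymes of synthesis. IDI1, which isomerises the isoprene unit, was at 124, 124.7 and 119.5 CPM in untreated and 53.8, 66.8 and 59.8 CPM in GO-treated cells, a log2 fold change of -1.03 (SE 0.14, adjusted p = 6.2e-05). HMGCS1 fell, at -0.61 (SE 0.16, adjusted p = 0.0066), ACAT2 at -0.84 (SE 0.09, adjusted p = 1.2e-05) and FDFT1, squalene synthase, at -0.43 (SE 0.09, adjusted p = 0.0021). No library of either group overlapped for these enzymes. Of the enzymes of synthesis, MVD and TM7SF2 rose, MVD by 0.70 (SE 0.18, adjusted p = 0.0067) and TM7SF2 by 0.69 (SE 0.17, adjusted p = 0.0045), and 13 of 20 did not pass, SQLE among them at -0.35.

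On the uptake side, NPC1L1, which takes up sterol from bile and gut, rose by 0.93 (SE 0.14, adjusted p = 0.00016), and ABCA1, the efflux pump, by 0.56 (SE 0.15, adjusted p = 0.0085). INSIG2, an anchor of SCAP that is also a hypoxia target, rose by 0.92 (SE 0.12, adjusted p = 5.1e-05). SREBF2 rose by 0.48 (SE 0.12, adjusted p = 0.0046), which with the GC offset became 0.26 (adjusted p = 0.017), and INSIG1 and SCAP did not pass, at -0.04 and 0.26. The count of lower members was 3 without GO replicate 3 or without untreated replicate 1 or 3. The motif TCACNCC, a core of the sterol response element, was in 6 of 27 promoters of the list (22.2%) and in 15.5% of all promoters.

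Of 33 fatty acid genes 9 were lower (27.3%) and 4 higher (12.1%), beside 15.4% lower and 12.1% higher among all genes. Beta-oxidation enzymes had 5 lower and 0 higher of 17, with ACADM, the medium-chain dehydrogenase, at -0.78 (SE 0.12, adjusted p = 0.00014) and HADHB, of the trifunctional protein, at -0.58 (SE 0.10, adjusted p = 0.00027). Among the regulators, PPARG, a receptor that drives lipid storage, was at 146, 151 and 147 CPM and 54.5, 64.9 and 56.1 CPM with GO. It was under-expressed, at -1.34 (SE 0.10, adjusted p = 2.3e-07), without overlap. PPARA did not pass, at -0.37. Elongase ELOVL6 and malic enzyme ME1 fell, at -0.999 (SE 0.09, adjusted p = 2.9e-06) and -0.91 (SE 0.11, adjusted p = 3.4e-05), and ANGPTL4, an inhibitor of lipoprotein lipase, rose by 1.28 (SE 0.27, adjusted p = 0.0018). FASN, SCD and CPT1A had values of 0.11, 0.20 and 0.18 and did not pass.

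Targets of ATF4 were higher in 14 and lower in 2 of 32 cases, with a median log2 fold change of 0.40, and 13 were higher without GO replicate 1. ATF4 mRNA had a value of -0.02, and DDIT3 (CHOP) and PPP1R15A (GADD34) had 0.37 and 0.18, none past the test. CHAC1, which degrades glutathione, was at 4.87, 4.73 and 5.16 CPM in untreated and 20.8, 15.9 and 16.8 CPM in GO-treated cells. It was clearly separated, at 1.86 (SE 0.19, adjusted p = 6.7e-06). SLC7A11, the cystine importer, was at 19.3, 20.9 and 18.9 CPM and 39.6, 52.9 and 46.2 CPM with GO (1.23 (SE 0.12, adjusted p = 5.1e-06)). Amino acid carriers SLC1A4 and SLC7A1 rose by 1.21 (SE 0.17, adjusted p = 7e-05) and 1.005 (SE 0.12, adjusted p = 2.6e-05), asparagine synthetase ASNS by 0.84 (SE 0.11, adjusted p = 4.5e-05), the stress hormone GDF15 by 1.14 (SE 0.21, adjusted p = 0.00062) and the pseudokinase TRIB3 by 0.76 (SE 0.16, adjusted p = 0.0019). Lower members were SLC38A2, a neutral amino acid carrier (-0.64 (SE 0.14, adjusted p = 0.0024)), and CEBPG (-0.55 (SE 0.09, adjusted p = 0.00031)). Serine and one-carbon genes were split, since PHGDH rose by 0.52 (SE 0.13, adjusted p = 0.0053) while PSAT1, SHMT2 and MTHFD2 did not pass, at -0.17, -0.01 and -0.16. Per library the list stood at 0.65 in GO replicate 1 and at 0.26 and 0.29 in the others.

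Endoplasmic reticulum chaperones stayed near the background share, with 2 higher and 2 lower of 23 and a median of 0.05. HSPA5 (BiP), the main chaperone of this compartment, had a log2 fold change of 0.05, HSP90B1 had -0.09 and HERPUD1 had -0.27, none past the test. The 2 higher members were not chaperones. ERN1 (IRE1 alpha), a sensor kinase, was at 17.0, 17.9 and 17.9 CPM in untreated and 33.8, 33.5 and 33.6 CPM in GO-treated cells. It rose by 0.93 (SE 0.10, adjusted p = 1e-05), with the treated libraries nearly identical. EDEM1, listed under degradation, rose by 0.46 (SE 0.13, adjusted p = 0.0089). XBP1, ATF6 and EIF2AK3 (PERK) did not pass, at 0.12, -0.03 and -0.06. DNAJB9 and DNAJB11, cofactors of BiP, fell, at -0.72 (SE 0.17, adjusted p = 0.0042) and -0.35 (SE 0.08, adjusted p = 0.0039), calls that were lost with the GC offset (-0.35, adjusted p = 0.017, and 0.01, adjusted p = 0.95).

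Of 24 tested heat shock genes, the mitochondrial chaperonins HSPD1 and HSPE1 among them, 14 were lower, none was higher and 10 did not pass, with a median log2 fold change of -0.48. HSPA8, the constitutive HSP70, was at 3615, 3641 and 3614 CPM in untreated and 2139.6, 2326 and 2091 CPM in GO-treated cells (-0.73 (SE 0.09, adjusted p = 3.1e-05)). HSP90AA1, the inducible HSP90, was at 2519, 2433 and 2428 CPM and 1174, 1582 and 1423 CPM with GO (-0.82 (SE 0.13, adjusted p = 0.00017)). Every treated library was below every untreated one for both. DNAJA1, HSPH1 and CACYBP fell, at -0.90 (SE 0.10, adjusted p = 1.2e-05), -0.85 (SE 0.11, adjusted p = 3.9e-05) and -0.99 (SE 0.09, adjusted p = 2.6e-06), and CHORDC1, a partner of HSP90, was under-expressed at -1.39 (SE 0.12, adjusted p = 2e-06). DNAJB1, a stress-induced partner of HSP70, was also lower (-0.48 (SE 0.08, adjusted p = 0.00029)). Other stress-induced members did not pass, with HSPA1A at -0.24, HSPA1B at 0.03, HSPA6 at 0.36, HSPB1 at 0.53, and their co-chaperone BAG3 at -0.02. HSF1 had a value of 0.31, which was not past the test, and HSF2 fell, at -0.57 (SE 0.12, adjusted p = 0.002). The count of lower members was 14 without GO replicate 1, 13 with the GC offset and 9 without GO replicate 3. GO-Rg3 was above GO for 11 of the 24 members, HSPA8 among them at 3079, 3366 and 3176 CPM (0.55 (SE 0.09, adjusted p = 0.0006)), and below GO for none.

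NRF2 targets were lower in 14 and higher in 3 of 32 cases, with a median of -0.38. NFE2L2 itself was at 251, 255 and 251 CPM in untreated and 106, 130.2 and 117.04 CPM in GO-treated cells, a log2 fold change of -1.10 (SE 0.10, adjusted p = 2.4e-06). GCLM, the modifier subunit of glutathione synthesis, was at 164, 167 and 156 CPM and 60.9, 87.5 and 84.4 CPM with GO (-1.06 (SE 0.12, adjusted p = 2e-05)). NQO1, a quinone reductase, was at 514, 495 and 499 CPM and 312, 307 and 279.9 CPM with GO (-0.75 (SE 0.09, adjusted p = 1.9e-05)). The treated libraries were lower throughout for these genes. TXNRD1 and TXN, thioredoxin reductase and thioredoxin, fell, at -0.66 (SE 0.15, adjusted p = 0.0031) and -0.89 (SE 0.19, adjusted p = 0.0017). HMOX1, haem oxygenase, had a value of -0.37 and KEAP1 of -0.33, neither past the test, and KEAP1 was at -0.64 (adjusted p = 1e-05) with the GC offset. Higher members were SLC7A11, OSGIN1 (0.91 (SE 0.22, adjusted p = 0.0044)) and EPHX1, an epoxide hydrolase (0.75 (SE 0.12, adjusted p = 0.00028)). OSGIN1 did not pass without GO replicate 1 (0.73, adjusted p = 0.019).

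The battery of the aryl hydrocarbon receptor, which senses planar aromatic compounds, had 5 lower and 0 higher members of 10. CYP1A1, its most responsive oxidase (chromosome 15 from 75011883 to 75017877), was at 197, 201 and 208 CPM in untreated and 5.25, 4.25 and 3.96 CPM in GO-treated cells, the largest fall of the comparison among genes of at least 1 CPM without near-identical copies, at -5.50. GO-Rg3 took an intermediate place, at 58.8, 57.7 and 58.3 CPM, above GO by 3.71 (SE 0.11, adjusted p = 2.3e-11). TIPARP, a feedback enzyme, fell, at -0.80 (SE 0.15, adjusted p = 0.00069) and CYP1B1 at -0.85 (SE 0.22, adjusted p = 0.0072). AHRR, the receptor's repressor and also a target, had a value of 0.07 and ALDH3A1 of 0.44, neither past the test. AHR mRNA fell, at -0.62 (SE 0.17, adjusted p = 0.0082), which was not past the test without GO replicate 1 (-0.40, adjusted p = 0.011) or with the GC offset (-0.29, adjusted p = 0.038). The count of lower members was 3 without GO replicate 1, GO replicate 3 or any untreated replicate.

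In the rest of drug metabolism, 10 of 25 conjugating enzymes were lower (40%) and 1 was higher (4%). Oxidases had 2 higher and 2 lower of 20, or 10% each, beside 12.1% higher and 15.4% lower among all genes. CYP2C8 was at 2.06, 2.46 and 2.57 CPM in untreated and 0.94, 0.91 and 0.99 CPM in GO-treated cells and was under-expressed (-1.32 (SE 0.18, adjusted p = 6.1e-05)). Glutathione transferases GSTA1, GSTA2, GSTM3 and GSTO1 fell, at -0.72 (SE 0.15, adjusted p = 0.0012), -0.73 (SE 0.12, adjusted p = 0.00034), -0.85 (SE 0.15, adjusted p = 0.00043) and -0.69 (SE 0.16, adjusted p = 0.0029). GSTA1 and GSTA2 are close copies that may share reads. NR1H4 (FXR), the bile acid receptor, fell, at -0.86 (SE 0.14, adjusted p = 0.00028), and NR1I2 (PXR) rose by 0.46 (SE 0.13, adjusted p = 0.0099), an adjusted p close to the threshold.

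Targets of NF-kappaB were higher in 12 and lower in 3 of 33 cases, with 8 overexpressed and a median of 0.51, which became 0.29 without GO replicate 1, with 11 higher and 4 lower. The subunits NFKB2, RELB and RELA rose by 1.47 (SE 0.16, adjusted p = 9.5e-06), 1.15 (SE 0.20, adjusted p = 0.00038) and 0.96 (SE 0.18, adjusted p = 0.00064), and NFKB1 and REL did not pass, at -0.06 and -0.01. BIRC3, an inhibitor of apoptosis, was at 8.10, 8.44 and 6.81 CPM in untreated and 22.1, 28.0 and 25.6 CPM in GO-treated cells (1.70 (SE 0.12, adjusted p = 2e-07)). ICAM1, an adhesion molecule, was at 213, 200.5 and 198 CPM and 576, 454 and 482 CPM with GO (1.31 (SE 0.13, adjusted p = 6.5e-06)). Both were fully separated. Feedback inhibitors parted, since TNIP1 and TNFAIP3 (A20) rose by 1.14 (SE 0.11, adjusted p = 4.9e-06) and 0.78 (SE 0.12, adjusted p = 0.00019) while NFKBIA fell, at -0.55 (SE 0.10, adjusted p = 0.00072). Of 12 chemokines and cytokines 2 were higher and 2 lower, shares near those of all genes. CXCL1 was lower (-0.64 (SE 0.11, adjusted p = 0.00046)), as was CCL20 (-0.54 (SE 0.12, adjusted p = 0.0024)), and CXCL2, CXCL3 and CXCL5 did not pass, at -0.27, 0.13 and -0.06. CXCL1 was higher with GO-Rg3 than with GO, at 47.1, 53.2 and 49.4 CPM (1.36 (SE 0.11, adjusted p = 1.5e-06)), and was at 29.6, 30.6 and 30.6 CPM in untreated cells.

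The acute-phase list holds proteins that liver secretes more in inflammation (positive), proteins that it secretes less (negative), and signalling genes. Members were higher in 8 and lower in 3 of 33 cases, with a median of 0.12. Of 22 positive proteins 5 were higher and 1 was lower. Of 5 negative ones 0 were higher and 2 lower, ALB and TF, and of 6 signalling genes 3 were higher and 0 lower. The largest rises were in genes of low level. SERPINA3, a protease inhibitor (chromosome 14 from 95078721 to 95090392), was at 0.37, 0.575 and 0.495 CPM in untreated and 3.41, 3.26 and 3.65 CPM in GO-treated cells (2.84 (SE 0.20, adjusted p = 2e-07)). LCN2, which sequesters bacterial siderophores, was at 0.212, 0.224 and 0.188 CPM and 3.88, 2.03 and 2.12 CPM with GO, highest in GO replicate 1. SAA1 rose by 1.14 (SE 0.22, adjusted p = 0.00079), and its near copy SAA2 by 0.95 (SE 0.20, adjusted p = 0.0016). CRP, also of low level, was at -0.50, and the more abundant HP, C3 and SERPINA1 were at 0.45, 0.36 and 0.34, none of these past the test. FGG, a fibrinogen chain, fell, at -0.60 (SE 0.11, adjusted p = 0.00077). The signalling genes CEBPD, IL6R and SOCS3 rose by 1.03 (SE 0.15, adjusted p = 9.6e-05), 0.98 (SE 0.12, adjusted p = 2.2e-05) and 0.78 (SE 0.13, adjusted p = 0.00031).

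Of 28 plasma carriers, apolipoproteins and lipoprotein enzymes 9 were lower and 1 was higher, with a median of -0.30. AFP was at 4801, 7039 and 5668 CPM in GO-treated cells, well below the untreated libraries, and was under-expressed (-1.07 (SE 0.17, adjusted p = 0.00016)). ALB, serum albumin, was at 4184, 4111 and 4123 CPM and 2301, 2988 and 2515 CPM with GO (-0.67 (SE 0.13, adjusted p = 0.0012)). GC, the vitamin D carrier, fell, at -0.81 (SE 0.10, adjusted p = 2.9e-05), AMBP at -0.40 (SE 0.10, adjusted p = 0.0053) and TF, transferrin, at -0.40 (SE 0.09, adjusted p = 0.0026), a call that TF lost with the GC offset (-0.16, adjusted p = 0.15). In contrast, none of 10 apolipoproteins passed, with APOA1, APOB and APOE at 0.09, 0.37 and 0.01. Not all of them were steady, since APOA2 and APOC1 were above the untreated range in GO replicate 1 and below it in GO replicates 2 and 3. APOA2 was at 598, 327 and 341 CPM with GO. Median GC content was 43.7% for the carriers and 60.1% for the apolipoproteins, and its part in this contrast was not tested. MTTP, which loads lipid onto APOB, fell, at -0.68 (SE 0.14, adjusted p = 0.0014), the hepatic and endothelial lipases LIPC and LIPG fell, at -0.45 (SE 0.08, adjusted p = 0.00068) and -0.79 (SE 0.10, adjusted p = 3.5e-05), and LCAT rose by 0.74 (SE 0.17, adjusted p = 0.0026).

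Coagulation and complement genes gave 7 higher and 6 lower of 44, shares near those of all genes, with a median of -0.02. F7, which starts clotting with tissue factor, rose by 1.01 (SE 0.14, adjusted p = 6.5e-05), and PLAU, urokinase, and MBL2, mannose-binding lectin, fell, at -1.33 (SE 0.12, adjusted p = 2.7e-06) and -1.16 (SE 0.15, adjusted p = 3.5e-05). Bile acid genes were lower in 7 and higher in 2 of 24 cases, with a median of -0.30. The uptake carrier SLCO1B3 (-1.36 (SE 0.27, adjusted p = 0.0011)) and the canalicular pump ABCC2 (-0.85 (SE 0.10, adjusted p = 2.9e-05)) fell, as did BAAT, which conjugates bile acids (-0.89 (SE 0.17, adjusted p = 0.00065)). ABCB11, the bile salt export pump, did not pass, at -0.37, and CYP7A1, the first enzyme of the classic route, was not above the filter.

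Glucose and nitrogen metabolism moved gene by gene, with 6 higher and 3 lower of 32. PCK1, the cytosolic enzyme of gluconeogenesis, was low, at 1.27, 1.34 and 1.18 CPM in untreated and 2.70, 3.72 and 3.62 CPM in GO-treated cells, yet its groups were separate (1.42 (SE 0.18, adjusted p = 3.5e-05)). AGXT and PRODH rose by 1.73 (SE 0.21, adjusted p = 2.9e-05) and 1.27 (SE 0.18, adjusted p = 8.9e-05), and the glucose transporter SLC2A2 (GLUT2) fell, at -0.89 (SE 0.18, adjusted p = 0.0013), opposite to SLC2A1. None of 9 urea cycle genes passed, with CPS1 at 0.05 and ARG1 at 0.18.

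Transcription factors of liver and gut identity were 4 higher and 4 lower of 24, shares near those of all genes. HNF4A, the master factor of hepatocytes, was at 378, 352 and 359.7 CPM in untreated and 571, 545 and 574 CPM in GO-treated cells, higher in every treated library (0.63 (SE 0.11, adjusted p = 0.00056)). FOXA2 and PROX1 rose by 0.68 (SE 0.14, adjusted p = 0.0016) and 0.63 (SE 0.13, adjusted p = 0.0016), FOXA1 fell, at -0.62 (SE 0.08, adjusted p = 6.8e-05) and TBX3 at -0.96 (SE 0.14, adjusted p = 8.5e-05). GATA4 and GATA6 did not pass, at -0.29 and 0.17.

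The BMP-SMAD list holds feedback genes that bone morphogenetic proteins switch on through SMAD1 and SMAD5, and also ligands, receptors and these SMADs. Its members were lower in 8 and higher in 1 of 17 cases, with a median of -0.40, and 6 were under-expressed. The ligand BMP4 was among the lower members, at -0.40 (SE 0.11, adjusted p = 0.0085), and BMP2 and BMP6 did not pass, at 0.29 and 0.84. All 4 ID genes, inhibitors of basic helix-loop-helix factors, fell. ID1 was at 208, 178 and 203 CPM in untreated and 82.2, 78.5 and 76.9 CPM in GO-treated cells (-1.31 (SE 0.12, adjusted p = 3.4e-06)), and ID3 was at 155, 144 and 159 CPM and 35.4, 45.0 and 47.0 CPM with GO (-1.84 (SE 0.15, adjusted p = 6.4e-07)). ID2 and ID4 fell, at -1.25 (SE 0.14, adjusted p = 1.3e-05) and -1.48 (SE 0.13, adjusted p = 2.2e-06), without overlap. The inhibitory SMADs SMAD6 and SMAD7 fell, at -0.82 (SE 0.11, adjusted p = 7.8e-05) and -1.64 (SE 0.12, adjusted p = 2e-07), and BAMBI, a decoy receptor, at -1.56 (SE 0.10, adjusted p = 3.9e-08). ENG, a co-receptor of low level, rose by 1.74 (SE 0.28, adjusted p = 0.0002). SMAD1, SMAD5, BMPR1A and BMPR2 did not pass, at -0.15, 0.21, -0.19 and -0.10. With GO-Rg3, ID3 was at 67.4, 53.1 and 74.7 CPM, above GO by 0.61 (SE 0.14, adjusted p = 0.0063).

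**Figure D4:**
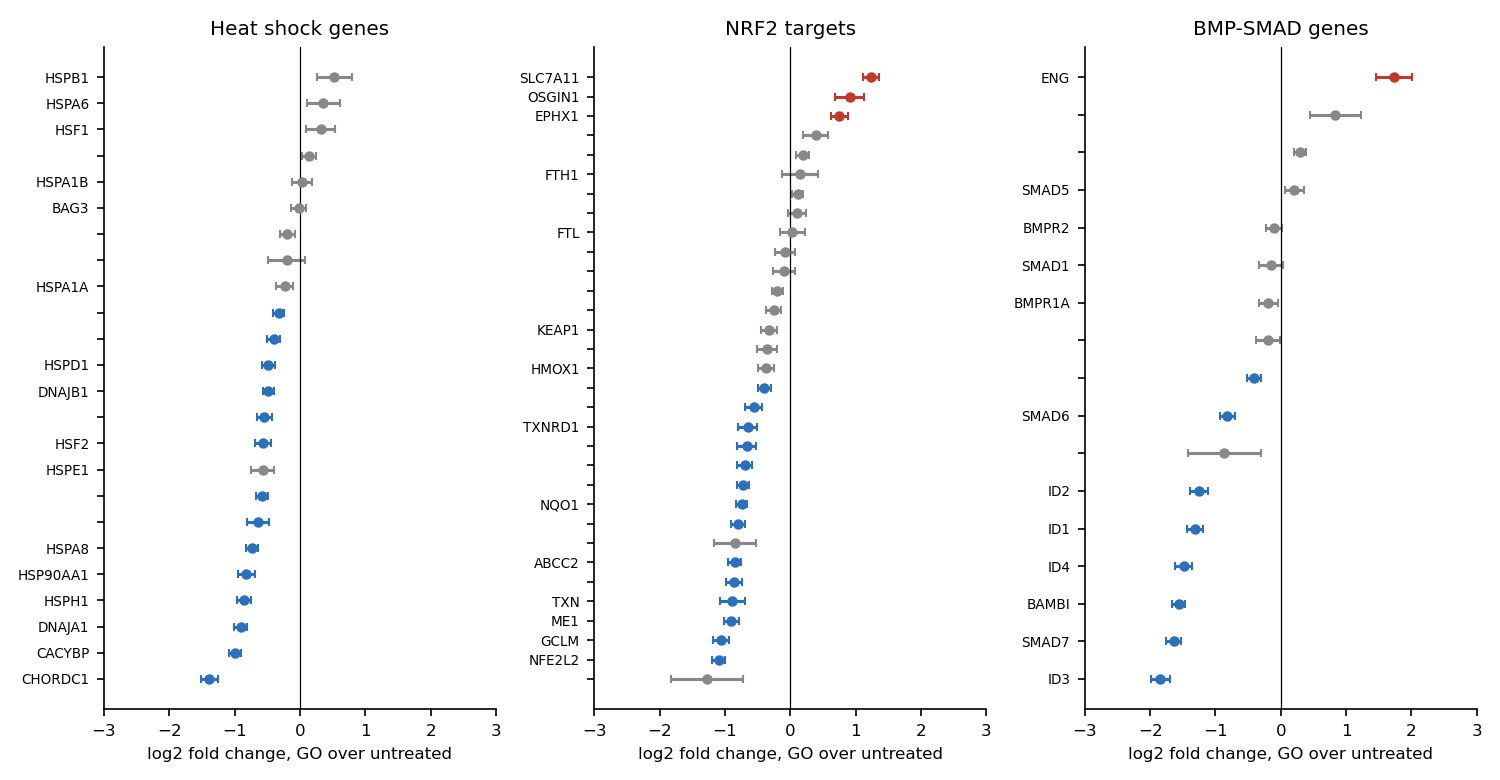
Log2 fold change of GO over untreated cells with the SE of the fit for each tested member of the heat shock, NRF2 and BMP-SMAD lists, with labels for genes named in the text. Blue points fell, red points rose and grey points did not pass at an adjusted p of 0.01. In the heat shock panel 14 of 24 points are blue and none is red.

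Among Wnt genes, 7 were lower and 2 higher of 21. DKK1, a secreted Wnt inhibitor, went from 90.2, 90.2 and 92.6 to 2.90, 3.37 and 3.42 CPM. LGR5, a receptor that marks stem cells, was at 15.3, 14.8 and 14.8 CPM in untreated and 4.31, 6.79 and 6.14 CPM in GO-treated cells (-1.37 (SE 0.15, adjusted p = 1.4e-05)). TCF7L2, a factor that works with beta-catenin, was at 39.5, 41.4 and 43.6 CPM and 122, 109.9 and 125.6 CPM with GO, in the opposite direction and without overlap (1.52 (SE 0.09, adjusted p = 3.8e-08)). AXIN2, the usual reporter of the pathway, had a value of -0.10 and CTNNB1 of 0.16, neither past the test. YAP-TEAD targets were 4 lower and 3 higher of 24, shares near those of all genes. ANKRD1 was at 85.6, 91.1 and 89.9 CPM and 23.7, 20.04 and 18.1 CPM with GO (-2.11 (SE 0.12, adjusted p = 2.2e-08)), and CYR61 was at 110.2, 111.2 and 102.8 CPM and 40.03, 28.8 and 28.2 CPM with GO (-1.74 (SE 0.14, adjusted p = 5.2e-07)). Both were far below the untreated range, while CTGF, often read with them, did not pass, at -0.41, nor did AMOTL2, at 0.08.

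Immediate early genes, which answer growth signals within minutes, were higher in 10 and lower in 1 of 23 cases. EGR1 was at 6.48, 6.23 and 8.69 CPM in untreated and 16.9, 15.5 and 20.6 CPM in GO-treated cells (1.30 (SE 0.14, adjusted p = 1e-05)), and FOSL2 was at 34.1, 32.1 and 34.8 CPM and 94.2, 87.0 and 88.8 CPM with GO (1.42 (SE 0.11, adjusted p = 4.1e-07)). FOS and FOSB rose by 1.12 (SE 0.14, adjusted p = 2.9e-05) and 1.21 (SE 0.13, adjusted p = 9.9e-06), and MYC fell, at -0.79 (SE 0.13, adjusted p = 0.00029). Of 14 ERK feedback genes 5 were higher and 1 lower, DUSP8 at 1.43 (SE 0.23, adjusted p = 0.0002) and SPRY2 at -1.29 (SE 0.15, adjusted p = 1.8e-05), and DUSP6, the common readout of ERK, did not pass, at 0.23.

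In the list of alpha-arrestins and glucose-sensing genes, 4 were higher and 2 lower of 14 tested, and 8 did not pass. The list also holds TSC22D3, FKBP5, PER1 and ZBTB16, which are neither alpha-arrestins nor glucose sensors and did not pass. Alpha-arrestins are adaptors that take transporters off the plasma membrane. ARRDC2, among the 10 largest rises, was at 0.397, 0.256 and 0.165 CPM in untreated and 6.97, 6.31 and 6.25 CPM in GO-treated cells, ARRDC3 at 27.1, 25.2 and 25.5 CPM and 44.6, 68.4 and 69.1 CPM with GO (1.23 (SE 0.16, adjusted p = 4.1e-05)). TXNIP, which inhibits thioredoxin and glucose uptake, was at 20.2, 20.9 and 19.4 CPM and 64.6, 71.7 and 68.9 CPM with GO (1.76 (SE 0.13, adjusted p = 2.2e-07)). ARRDC1 did not pass, at 0.33, and ARRDC4 and ARRDC5 were not above the filter. ARRDC2, ARRDC3 and TXNIP did not overlap between groups, and all 3 were lower with GO-Rg3, TXNIP at -1.79 (SE 0.13, adjusted p = 3.5e-07). The glucose-sensing factors of this list parted, with MLXIP at 0.73 (SE 0.11, adjusted p = 0.00018) and MLX at -0.85 (SE 0.09, adjusted p = 6.3e-06). Clock genes were 6 higher and 1 lower of 19. RORA was at 1.35, 1.34 and 1.08 CPM and 4.54, 5.70 and 5.21 CPM with GO (2.04 (SE 0.17, adjusted p = 6.8e-07)), and the core factors CLOCK and ARNTL did not pass, at 0.04 and -0.20.

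All 13 mitochondrially encoded mRNAs were overexpressed, with log2 fold changes of 1.46 to 2.10 and a median of 1.73, or 1.23 without GO replicate 1. MT-CO1, a core subunit of cytochrome oxidase, was at 10368, 12010.00 and 12843 CPM in untreated and 51043, 23196 and 29212 CPM in GO-treated cells (1.55 (SE 0.25, adjusted p = 0.00022)). MT-CYB, of complex III, rose by 1.88 (SE 0.26, adjusted p = 6.5e-05). GO replicate 1 held the highest level, and the other treated libraries were also above every untreated one. All 13 were lower with GO-Rg3 than with GO. Because these mRNAs take a large part of each library, counts were also made with scaling that leaves them out, which gave 39 higher and 1 lower hypoxia targets and 13 lower heat shock genes.

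Cytosolic ribosomal protein mRNAs depended on the library. Of 78 tested 24 were lower and none higher, with a median of -0.49. The list stood at 0.01 in GO replicate 1 and at -0.78 in both other treated libraries, relative to the untreated mean on a log2(CPM + 0.5) scale. Without GO replicate 1, 58 were lower, and without GO replicate 2 or 3 the count was 12. Leaving out an untreated library gave 13 or 14. RPS7 was at 561, 584 and 577 CPM in untreated and 370.5, 242 and 233 CPM in GO-treated cells (-1.03 (SE 0.17, adjusted p = 0.00023)). GO and GO-Rg3 did not differ past the test for any of the 78, and RPS7 was at 239, 349.8 and 345 CPM with GO-Rg3.

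Cell cycle genes were lower in 13 and higher in 3 of 45 cases, with a median of -0.22. The largest falls were in replication genes. PCNA, the sliding clamp, was at 239, 229 and 234 CPM in untreated and 98.9, 101.5 and 90.3 CPM in GO-treated cells (-1.27 (SE 0.12, adjusted p = 3.1e-06)), and GMNN, which blocks licensing, fell, at -1.08 (SE 0.11, adjusted p = 5e-06). CCNE1 and CCND1 fell, at -0.64 (SE 0.10, adjusted p = 0.00017) and -0.48 (SE 0.08, adjusted p = 0.00048). CDC25B and MKI67 rose by 0.92 (SE 0.13, adjusted p = 8.9e-05) and 0.59 (SE 0.12, adjusted p = 0.0017), and CDKN1A (p21) did not pass, at 0.05.

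The 10 largest rises and 10 largest falls were taken among called genes without overlap and with a mean of at least 1 CPM. Left out were metallothioneins, genes annotated as other than protein-coding, and genes named as clones, antisense or noncoding RNAs. Of these 20, 10 genes belonged to no list. C6orf222 was at 0.556, 0.639 and 0.565 CPM in untreated and 5.33, 5.08 and 5.38 CPM in GO-treated cells (3.16 (SE 0.17, adjusted p = 1.5e-08)), and SPAG4 was at 3.28, 3.00 and 3.25 CPM and 25.1, 17.4 and 18.4 CPM with GO (2.67 (SE 0.15, adjusted p = 2.4e-08)). SLC16A6, a monocarboxylate carrier, rose by 2.96 (SE 0.25, adjusted p = 1.1e-06) and EFNA3, an ephrin, by 2.70 (SE 0.29, adjusted p = 1.1e-05). KCNJ8, a subunit of ATP-sensitive potassium channels, was at 15.0, 17.0 and 14.8 CPM and 1.72, 2.33 and 2.07 CPM with GO (-2.92 (SE 0.14, adjusted p = 4e-09)). HSD3B1, a steroid dehydrogenase, was at 13.7, 15.8 and 14.7 CPM and 3.29, 3.66 and 3.31 CPM with GO (-2.10 (SE 0.13, adjusted p = 5.6e-08)). SAMD11, the protocadherin PCDH9, TMEM27 and TM4SF20 fell, at -3.23 (SE 0.34, adjusted p = 7.3e-06), -2.50 (SE 0.22, adjusted p = 1.6e-06), -2.22 (SE 0.20, adjusted p = 2.5e-06) and -2.04 (SE 0.23, adjusted p = 1.4e-05). SAMD11 shares exon sequence with NOC2L on the other strand and SLC16A6 with ARSG, so their counts may be mixed if strand was not used.

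Set side by side in each library, GO and the GO-Rg3 conjugate at equal mass concentration differed by list. Hypoxia targets stood at -0.06 to 0.13 with GO-Rg3, metallothioneins at -0.81 to -0.07 beside -3.14 to -2.60 with GO, and heat shock genes at -0.10 to -0.04 beside -0.52 to -0.30. NF-kappaB targets, at 0.19 to 0.48 beside 0.24 to 0.43, and ribosomal proteins overlapped between GO and GO-Rg3. In the test of GO-Rg3 against GO, 5 NF-kappaB targets were higher and 6 lower of 33, and no copper gene and no iron gene passed.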

How the data were processed

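RNA was sequenced from 12 Huh7 samples as stranded mRNA libraries, and per the labels reads were aligned to GRCh37 and counted with featureCounts. The authors deposited 1 table of raw read counts per gene, with no normalization. The annotation release and strand setting are not given in the sources used here. Genes reaching 10 counts in 3 or more of the 12 samples were kept. They were fitted in edgeR 4.0.16 (R 4.3.3) with quasi-likelihood F tests on all 12 samples, a group term and TMM scaling, without a block, and DESeq2 1.42.0 was an alternative. The script was tested on simulated data. Reads carried no molecular identifiers, so totals and floors cover counting error only. Gene positions, GC content and exon overlaps came from GENCODE v44 lifted to GRCh37, which matched 16622 of 17092 genes, and promoters came from RefSeq on GRCh38.p14. Members and lists were chosen with earlier results of these data known. Named were the 10 largest rises and falls, up to 4 members per list with the largest change past the test at a mean of at least 1 CPM, and each list's regulators. Any other named gene was chosen after its values were seen. Alternatives covered scaling, filters, the tool, the prior count, GC content, a block on replicate number, the threshold, a fit of 6 samples and leaving out each library. The GO-Rg3-DOX samples entered the fit only. Results for some list members are not reported here, although the list counts include them.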

Additional observations from a re-analysis of the deposited data

How the results depend on the processing

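Of 1105 over- or under-expressed genes, 628 (56.8%) were also called with the GC offset, which called 863, and fold change correlated with GC content across genes (Spearman rho 0.43, n = 16622, genes not being independent replicates). Overexpressed genes numbered 657, and 256 at an adjusted p below 1e-04. Under-expressed genes numbered 448, and 695 with library totals alone, 258 with the GC offset, 266 with the replicate block and GC offset, and 229 at 1e-04. With 1 library left out the ranges were 513 to 727 overexpressed and 409 to 535 under-expressed. GO-Rg3 against GO gave 120 higher and 353 lower genes, 220 and 231 with library totals alone, and 77 to 194 higher and 258 to 385 lower with 1 library left out. Lower sterol genes numbered 9 by DESeq2 and 8 with the replicate block, and 3 to 6 with 1 library left out, and lower heat shock genes 9 to 14. Medians below 0 in place of above 0 were found for other-cell markers, at -0.0057 with library totals and -0.10 without the filter, and for clock genes, at -0.0066 with library totals. Of the medians within 0.1 of 0, those of hepatocyte markers and liver identity factors kept their sign in 13 of 17 alternatives (down to -0.13 and -0.18), iron genes in 14 (to -0.11), coagulation and complement in 15 (up to 0.0049) and the endoplasmic reticulum list in 16 (to -0.072). DNAJB11 was at 0.0088 with the GC offset and at 0.0018 with the block and GC offset. The cause of these shifts was not tested.

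Of the named genes past the test, 20 lost the call under at least 1 alternative, most often when an untreated library was left out (15 or 16 genes). Replicate numbers did not pair the samples: deviations of same-numbered samples correlated at 0.0063, 0.060 and 0.00092, and only replicate 2 correlated best with its own number. With the replicate block 700 genes were overexpressed and 485 under-expressed. Depth limits genes near the filter of 10 counts.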
